A study of Mus musculus with 8 samples.

Results

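The microRNAs miR-193, miR-193b and miR-365 come from a pair of small genomic clusters, and their assays are 3 of the 381 listed on the card with which mouse liver was profiled during carbon tetrachloride (CCl4) injury. In these livers the assays changed in different directions. Scaled to the card mean, miR-193b was higher than in untreated liver on all 6 CCl4 cards, though in raw values not on each. At 1 week it stood at 5.81-fold ± 0.772 (SD, n = 2). miR-365 was lower on all 6, at 0.364-fold ± 0.0054 (SD, n = 2) at 4 weeks, and miR-193 was at 0.116-fold ± 0.0642 (SD, n = 2) at 4 weeks. The assays were found by name and were chosen on the changes of these same 8 cards, which were already known. Their changes and calls are therefore given as a description, without p-values.

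Groups were untreated C57B6 mice and mice injected intraperitoneally with CCl4 in corn oil, a hepatotoxin that gives progressive fibrosis, for 1, 4 or 8 weeks. All mice were female and were 4 weeks old when treatment began. The labels give the dose as 1 mg/kg and the methods as 1 ml/kg. Each group had 2 cards, and the labels do not say that the replicates of a group were separate mice, so the spread between them may be technical. They also do not say whether a card held RNA of 1 mouse or of several. RNA was from whole liver, in which fewer cells of a type and less RNA per cell cannot be told apart. The labels name no group given corn oil alone.

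Each well of the card holds a quantitative PCR assay whose threshold cycle (Ct) falls by about 1 when the template doubles. Cards had 193 to 235 determined assays, and the mean Ct of the 149 assays used for centring ran from 27.5 to 29.8, with the second 4-week card the faintest. Levels below are on a log2 scale, as the mean Ct of those 149 assays on the card minus the Ct of the assay. A fold change is against the mean of the untreated cards. Of the 166 assays tested with limma, all 3 described here were determined on every card, at a mean Ct of 28.1 for miR-365, 30.0 for miR-193b and 31.2 for miR-193.

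A microRNA pairs with messenger RNAs mainly through its seed, bases 2 to 8 from its 5′ end, and lowers their translation and stability. Each cluster holds a miR-193 gene followed by a miR-365 gene. The miR-193b and miR-365 cluster is best known from brown fat, where it is abundant, and miR-193a and miR-193b are known as repressors of growth genes such as cyclin D1. In mouse the precursors of miR-193a and of a copy of miR-365 (Mir365-2) lie on chromosome 11 with 14365 bases between them. Those of miR-193b and the other copy (Mir365-1) lie on chromosome 16 with 4238 bases between them. All 4 precursors are on the + strand (RefSeq, GRCm38.p6).

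How far the 3 microRNAs differ is seen in the mature sequences below. They are RefSeq's, 5′ to 3′, with the seed in capitals. The card names miR-193 and miR-365 without an arm, so the 3p arm was taken from the older naming in which these names meant the 3p product, and was not checked against probe sequences.
mmu-miR-193a-3p, chr11:79712009-79712030: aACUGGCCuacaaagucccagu
mmu-miR-193b-3p, chr16:13449570-13449591: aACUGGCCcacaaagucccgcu
mmu-miR-365-3p, chr11:79726467-79726488 and chr16:13453895-13453916: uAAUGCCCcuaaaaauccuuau

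The miR-193a and miR-193b sequences are identical at 19 of 22 positions and differ by U9C, A20G and G21C, written with the miR-193a base first and counted from the 5′ end. They share the seed ACUGGCC, which pairs with GGCCAGU in a target, and no other of the 1679 mature mouse microRNA names in the RefSeq table has it. The seed of miR-365, AAUGCCC, pairs with GGGCAUU and belongs to miR-365 alone in that table. Both miR-365 copies give the same 22 bases, so the miR-365 assay reads the sum of the clusters, while miR-193 and miR-193b each stand for 1 cluster. Cross-reaction between the miR-193 and miR-193b assays was not tested. By exact name, 280 assays of the card could be set against the RefSeq table.

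miR-193, from the chromosome 11 cluster, had a log2 level relative to the untreated mean of -0.32 and 0.32 without CCl4. After 1 week the cards stood at -0.25 and -1.36, so that these groups overlapped. They stood at -2.63 and -3.82 after 4 weeks and at -1.20 and -2.07 after 8. The lowest values were thus at 4 weeks, and the 4-week and 8-week cards all lay below both untreated cards. The raw Ct rose from 29.96 and 28.97 on the untreated cards to 32.18 and 34.89 at 4 weeks, the latter close to the limit of 35 used here for a faint assay. In linear terms the mean was 0.616-fold ± 0.319 of untreated after 1 week, 0.116-fold ± 0.0642 after 4 and 0.337-fold ± 0.139 after 8 (SD, n = 2). The replicate SD of miR-193 was 0.69 on the log2 scale, against a median of 0.39 over the 166 assays.

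miR-193b, which carries the same seed and comes from the chromosome 16 cluster, lay on the other side of untreated liver. It stood at 0.19 and -0.19 without CCl4, rose to 2.40 and 2.67 after 1 week, and stood at 0.92 and 1.29 after 4 weeks and 0.41 and 0.47 after 8. All CCl4 cards lay above both untreated cards and no groups overlapped. For any 1 pair of groups with 2 cards each, this happens by chance in 33.3% of cases. The level was highest at 1 week, and the raw Ct there, 28.84 and 28.40, was lower than the 30.63 and 30.65 of untreated liver. The mean was 5.81-fold ± 0.772 of untreated after 1 week, 2.16-fold ± 0.390 after 4 and 1.35-fold ± 0.0432 after 8 (SD, n = 2). Its replicate SD of 0.21 was the 25th lowest of the 166 assays.

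miR-365, the shared product of the clusters, was lower than in untreated liver, as the group means of miR-193 were. Its log2 level was 0.11 and -0.11 without CCl4 and lay at -1.33 and -1.05 after 1 week, -1.48 and -1.44 after 4 weeks, and -1.05 and -0.62 after 8. All CCl4 cards lay below both untreated cards, and the 3 treated groups lay close to each other. The raw Ct went from 26.97 and 26.83 in untreated liver to 28.83 and 28.38 after 1 week. Relative to untreated, the mean was 0.440-fold ± 0.0605 after 1 week, 0.364-fold ± 0.0054 after 4 and 0.568-fold ± 0.117 after 8 (SD, n = 2). Its replicate SD was 0.20.

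**Figure D1:**
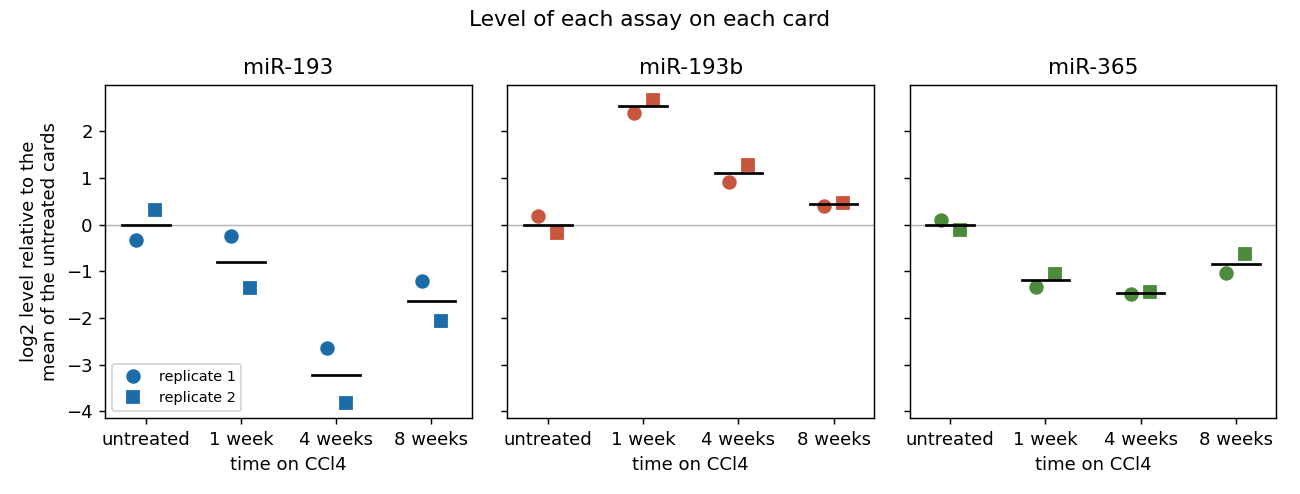
Log2 level of each assay relative to the mean of the untreated cards, by time on CCl4; each point is 1 card and each bar the mean of 2 cards. miR-193b peaked at 1 week, between 2.40 and 2.67, while miR-193 was lowest at 4 weeks, between -3.82 and -2.63, and miR-365 stayed between -1.48 and -0.62 on every CCl4 card.

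In limma's fit over all 166 assays, the log2 fold changes at 1 week were 2.53 for miR-193b (SE 0.30), -1.19 for miR-365 (SE 0.29) and -0.80 for miR-193 (SE 0.56). The first and second passed an adjusted p of 0.05, as did 32.5% of all assays. At 4 weeks the values were -3.22 for miR-193, -1.46 for miR-365 and 1.10 for miR-193b, and all 3 passed, against 30.1% of all assays. At 8 weeks they were -1.63, -0.83 and 0.44 in the same order, and none of the 3 passed, against 3.01% of all assays. The 6 CCl4 cards lay on one side of both untreated cards for 2 of the 3 assays, miR-193b above and miR-365 below, as they did for 29.5% of all assays. The second 1-week card of miR-193 lay outside the untreated range and the first did not. Nothing about the 3 assays is read from these counts, since the changes themselves chose them.

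Some of these calls depended on single cards or on the centring. The call of miR-193b at 4 weeks was lost without either untreated card (log2 fold change 1.26 without replicate 1 and 0.90 without replicate 2), without either 1-week card (1.08 in both cases) and without the second 4-week card (0.91). The call of miR-365 at 1 week was lost without any 1 of the 4 cards compared, at -1.33 to -1.03. That of miR-193 at 4 weeks passed without each card, at -3.82 to -2.63. The 1-week value of miR-193, which had not passed, ran from -1.33 to -0.25 with single cards left out. Where a compared group is left with 1 card, these fits assume that it varies like the other groups.

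Among the 166 assays, miR-193 had the 47th lowest fold change at 1 week, the 2nd lowest at 4 weeks and the 4th lowest at 8 weeks. miR-193b had the 12th highest at 1 week, the 33rd highest at 4 weeks and the 55th highest at 8 weeks. The place of miR-365 hardly moved, at 27th, 24th and 23rd lowest. The ranks set the fold changes of different assays beside each other, not their levels.

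**Figure D2:**
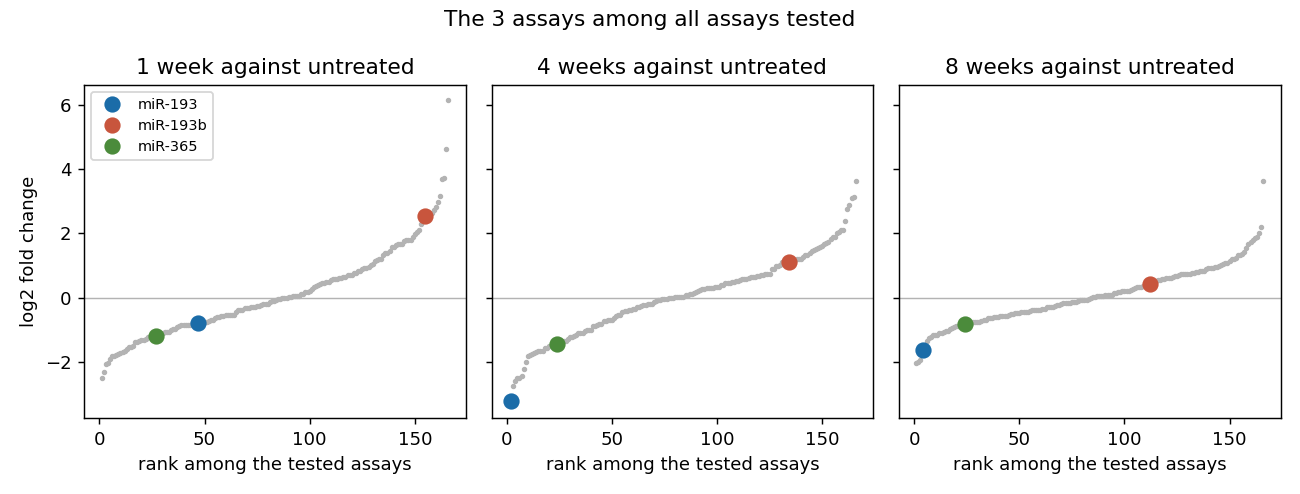
Log2 fold change against untreated of the 166 tested assays (grey), ranked from lowest to highest at each time, with the 3 assays in colour. miR-193 was the 2nd lowest at 4 weeks, and miR-193b moved from the 12th highest at 1 week to the 55th highest at 8 weeks.

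Differences between times came from the same fit. From 1 to 4 weeks the log2 level of miR-193 fell by 2.42 (SE 0.56) and that of miR-193b fell by 1.43 (SE 0.30), and both passed the threshold, as did 47.0% of all assays; miR-365 differed by -0.27 and did not pass. The call of miR-193 was lost without the first 1-week card (-1.91) or the second 4-week card (-1.76), and that of miR-193b without the second 1-week card (-1.32). The miR-193 call was also lost with undetermined values at Ct 40 (-2.42), and the miR-193b call with cards centred on the control small RNAs (-0.55) or not normalized (-1.77). From 1 to 8 weeks miR-193b fell by 2.09 and passed, against 24.1% of all assays, although not without the second 8-week card (-2.12) or without normalization (-1.60). The differences of miR-193 (-0.83) and miR-365 (0.36) over that span did not pass. With single cards left out these differences ran from -1.40 to -0.31 and from 0.15 to 0.57. The control small RNAs gave -0.13 and 1.06. From 4 to 8 weeks miR-193 differed by 1.59, miR-365 by 0.63 and miR-193b by -0.66, and none of the 3 passed, against 1.20% of all assays. The 8-week cards of miR-193 and miR-365 lay above their 4-week cards without overlap. By chance alone, 2 cards against 2 lie apart in 33.3% of cases, and the share over all 166 assays was not counted. The value of miR-193 was the 3rd highest of the 166, at 0.99 to 2.19 with single cards left out.

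Comparing assays on the same card removes the centring altogether, because the same card mean is subtracted from both. Such a difference mixes the amount of each microRNA with the efficiency of its assay, so only its change between groups is read. The Ct difference between miR-365 and miR-193b, as cycles by which miR-365 was ahead, was 3.66 and 3.82 in untreated liver. It was 0.01 and 0.02 after 1 week, 1.35 and 1.01 after 4 weeks, and 2.29 and 2.65 after 8. The groups did not overlap, which for any 1 pair of groups happens by chance in 33.3% of cases. The spread between replicates was small (pooled SD 0.18). Against untreated, the difference shrank by 3.73 cycles, or 13.2-fold, at 1 week, by 2.56 cycles, or 5.90-fold, at 4 weeks, and by 1.27 cycles, or 2.41-fold, at 8 weeks. The difference was thus furthest from its untreated value at 1 week and nearer to it at each later time.

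The difference between the microRNAs with the shared seed changed too. miR-193b minus miR-193 was -0.67 and -1.68 in untreated liver. It was 1.47 and 2.85 after 1 week, 2.37 and 3.93 after 4 weeks, and 0.43 and 1.36 after 8, so that all 6 CCl4 cards lay above both untreated cards. The mean change against untreated was 3.34 cycles, or 10.1-fold, at 1 week, 4.33 cycles, or 20.0-fold, at 4 weeks, and 2.07 cycles, or 4.20-fold, at 8 weeks, against a pooled replicate SD of 0.88. Leaving out each card in turn gave changes of 2.65 to 4.03, 3.55 to 5.11 and 1.57 to 2.58 at these times.

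For miR-365 minus miR-193 the groups separated less. The difference was 2.99 and 2.14 in untreated liver, 1.48 and 2.87 after 1 week, 3.72 and 4.94 after 4 weeks, and 2.72 and 4.01 after 8. Only the 4-week cards lay clear of the untreated cards, with a mean change of 1.77 cycles, or 3.40-fold, and a pooled replicate SD of 0.85. The mean changes at 1 week (-0.39) and 8 weeks (0.80) were within that spread, and the one at 1 week changed sign when single cards were left out (-1.09 to 0.31). Left-out cards moved the change at 4 weeks between 1.16 and 2.38, and the one at 8 weeks between 0.16 and 1.45.

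**Figure D3:**
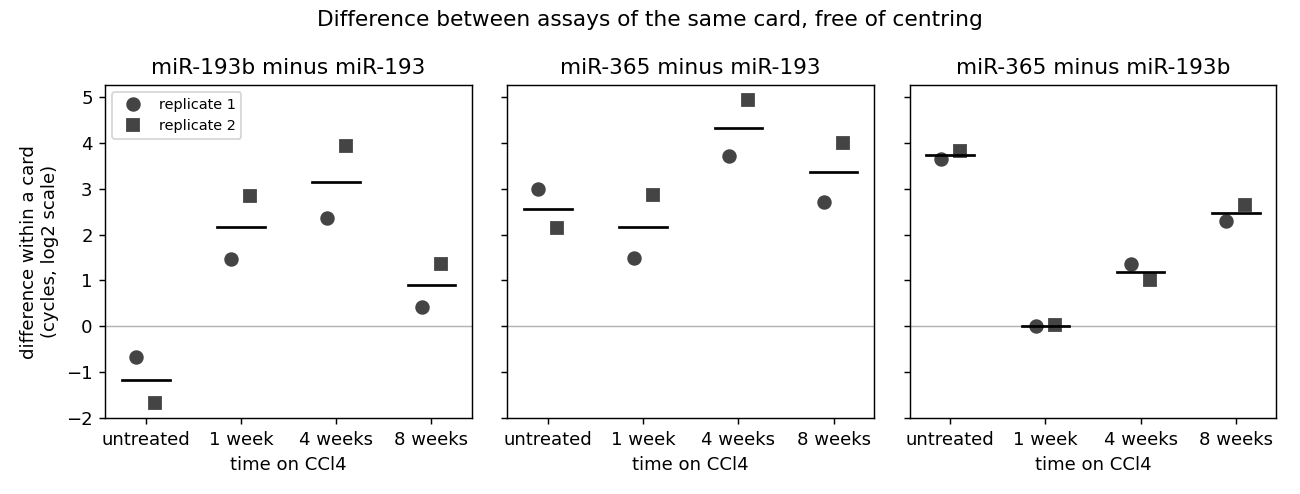
Ct difference between 2 assays of the same card, in cycles (log2 scale; positive where the first-named assay crossed the threshold earlier), by time on CCl4; points are cards and bars means of 2 cards. miR-365 minus miR-193b ran from 3.66 and 3.82 in untreated liver to 0.01 and 0.02 at 1 week, and miR-193b minus miR-193 was higher on all 6 CCl4 cards than on both untreated cards.

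The fold changes against untreated, unlike these differences, rest on the centring. U6, a small nuclear RNA often used as a control, was itself higher at 1 week (log2 fold change 2.38) and lower at 4 weeks (-1.50), both past the threshold, and U87 was lower at both times (-1.92 and -1.74). snoRNA202 was lower at 1 week (-1.39) and did not pass later (-0.39 and -0.21). Y1, at -1.28, 0.98 and 0.59, passed at no time, and neither did snoRNA135, at -0.27, -0.03 and -0.06. With cards centred on U6, snoRNA135 and snoRNA202 together, the 4-week changes became -2.58 for miR-193, 1.74 for miR-193b and -0.82 for miR-365, and miR-365 no longer passed. That centring moved the median of all assays to 0.67 at 4 weeks, and it turned the 1-to-4-week difference of miR-365 to 0.62. The methods name the geometric mean of each plate, without saying over which assays. With that of all determined Ct values, the median was -0.43 at 1 week, and miR-193b at 4 weeks (0.89) no longer passed. The direction of the group means of the 3 assays against untreated was the same at every time under each of the 5 centrings. On single cards without centring, miR-193b was at a Ct of 30.96 on the second 4-week card and 30.88 on the second 8-week card, above the 30.63 and 30.65 of untreated liver, while miR-365 had a higher Ct than both untreated cards on all 6 CCl4 cards.

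**Figure D4:**
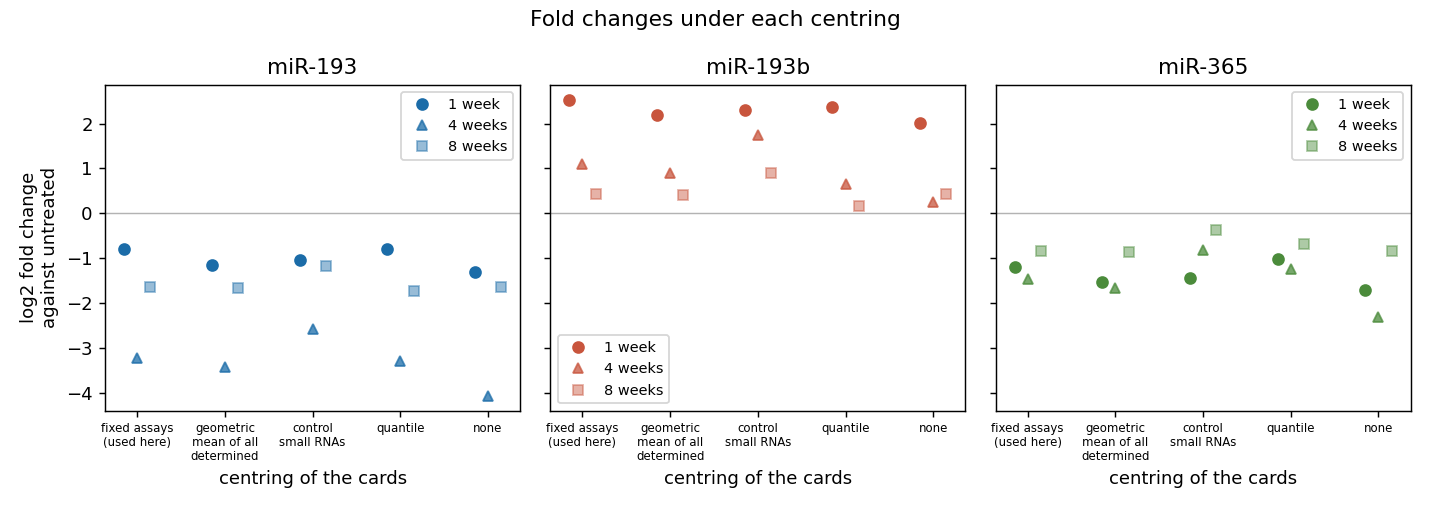
Log2 fold change of each assay against untreated under 5 ways of centring the cards, none included; symbols mark the time on CCl4. No symbol crosses 0, but miR-193b at 4 weeks ran from 0.26 with no centring to 1.74 with the control small RNAs.

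The assays with the most similar course over the 8 cards were different for the 3. The measure was Pearson's r of the centred levels, over 8 cards that share group, centring and card quality, and it is a description only. miR-193 ran with miR-194 (r = 0.97), miR-192 (0.97) and miR-30c (0.94). miR-194 and miR-192 are clustered microRNAs abundant in hepatocytes, both on the hepatocyte list below, and their log2 fold changes at 4 weeks were -2.49 and -2.76. The lowest r with miR-193 was that of miR-15b (-0.97), which was at 2.40 at 4 weeks. miR-193 gave an r of 0.64 with miR-365 and -0.16 with miR-193b.

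miR-193b ran with miR-434-3p (r = 0.91), miR-484 (0.91) and miR-146b (0.91). Their log2 fold changes were 2.09, 1.79 and 3.73 after 1 week, 0.40, 0.12 and 1.20 after 4 weeks, and 0.73, -0.14 and 0.61 after 8 weeks. miR-146b belongs to a family known for induction by inflammatory signals. The lowest r was that of miR-27b (-0.90). Under the control small RNAs, with no centring, or without either untreated card or the first 8-week card, 1 of these 3 names stayed among the closest.

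miR-365 ran with rno-miR-345-3p (r = 0.98), let-7f (0.93) and miR-103 (0.93), at -1.83, -1.06 and -0.91 at 1 week. Its lowest r was that of miR-223 (-0.98), a microRNA of myeloid cells, which was higher than in untreated liver at 1 week (2.06) and 4 weeks (2.77). With miR-193b the r was -0.63. Without the second 1-week or the first 8-week card, 1 of the 3 closest names stayed.

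**Figure D5:**
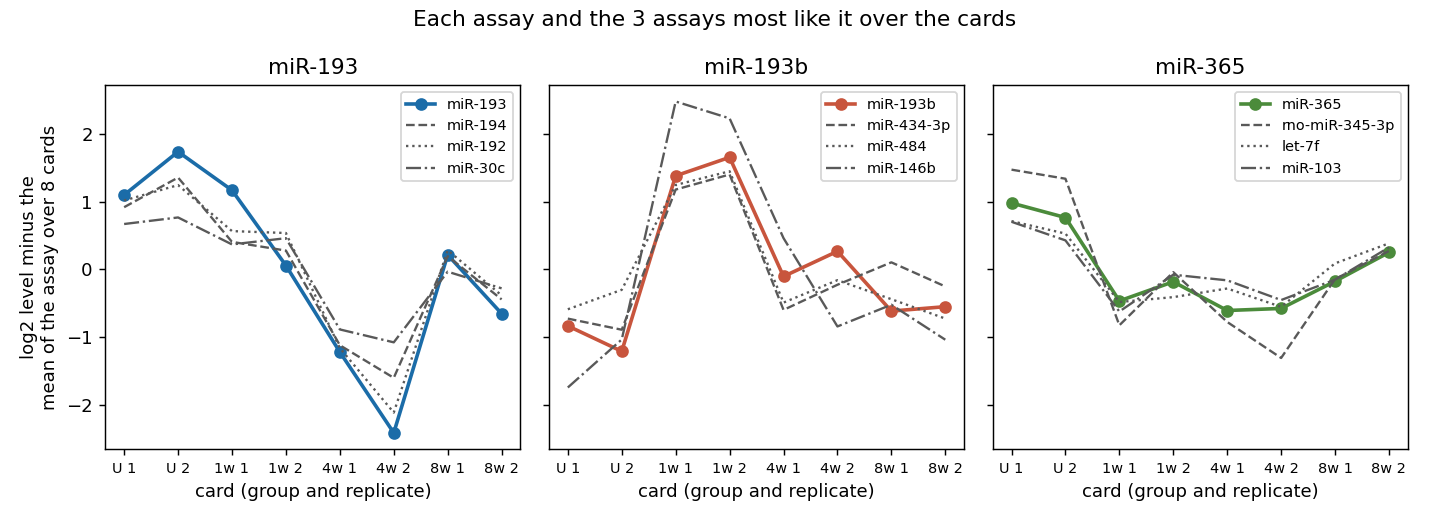
Log2 level minus the mean of the assay over 8 cards, for each assay (colour) and the 3 assays with the highest Pearson r to it (grey); U is untreated, 1w, 4w and 8w are weeks on CCl4, and the last digit is the replicate. The miR-193 group was lowest at 4 weeks, the miR-193b group highest at 1 week, and the miR-365 group highest on the untreated cards.

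Markers of the cell types of liver moved on the same cards. Of 5 microRNAs enriched in hepatocytes, 1, 4 and 1 were lower at 1, 4 and 8 weeks, with median log2 fold changes of -0.79, -2.49 and -1.18, and their mean per card ran from -2.15 to -1.95 at 4 weeks. Over all 166 assays, 24, 28 and 1 were lower at these times. miR-802 led the list, at -3.28 at 4 weeks, while miR-122, the most abundant microRNA of hepatocytes, passed at no time (-1.20, -0.23 and 0.09). Of 6 microRNAs enriched in leukocytes, 5 were higher at 1 week and 4 at 4 weeks and none passed at 8 weeks, with medians of 1.71, 1.31 and 0.72 and card means of 1.38 to 1.50 at 1 week. Over all assays, 30, 22 and 4 were higher. Of the arms of miR-142, a general leukocyte marker, miR-142-5p was at 1.63 at 1 week and passed. miR-142-3p, at -0.20 at 1 week, passed at 4 weeks only (2.00). miR-122 and miR-142-3p were named after their values were seen. The part of these shifts in the values of miR-193, miR-193b and miR-365 was not tested.

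Lists for other cell types were counted in the same way, against 22 higher and 28 lower of all 166 assays at 4 weeks. Of 4 mesenchymal microRNAs, 2 were higher at 4 weeks, miR-214 (1.69) and miR-199a-3p (1.10), both known from activated stellate cells. The other 2, miR-143 (-0.34) and miR-145 (0.33), did not pass at 4 weeks, and none of the 4 passed at the other times. Both arms of miR-126, an endothelial microRNA, were lower at 4 weeks (-1.83 and -1.65). None of the 4 epithelial miR-200 family members tested and neither of the erythroid miR-451 and miR-486 passed at any time. A further epithelial member, miR-141, was not determined on every card.

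A list of 16 microRNAs known from brown and beige fat was also counted, since the miR-193b cluster is best known there; 13 were tested, since the card lists no miR-378 by that name and miR-133b and miR-455 were not determined on every card. At 1 week 2 were higher and 3 lower, at 4 weeks 2 were higher and 6 lower, and at 8 weeks 1 was higher, with medians of 0.00, -1.01 and -0.45 against -0.09, 0.03 and -0.04 for all 166 assays, of which 54, 50 and 5 passed in either direction. miR-34a, a target of p53, was higher at each time (1.56, 1.44 and 1.66). miR-27b was lower at 1 and 4 weeks (-1.54 and -1.09), and so was miR-26b (-1.10 and -1.28). miR-203 was at 0.28 at 1 week and was lower at 4 weeks (-2.49). The list shares miR-155 with the leukocyte list.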

How the data were processed

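The authors deposited raw Ct values, 1 per assay and card, in which an undetermined assay is blank, with no normalization and no averaging over cards. Per the methods, total liver RNA was reverse-transcribed with Megaplex primers without pre-amplification and run on a real-time PCR instrument. How the Ct threshold was set is not given in the sources used here. A deposited table of the authors' own fold changes was not used. It holds ratios to the untreated group after normalization to a geometric mean.

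Each Ct was subtracted from the mean Ct of its card over the 149 assays below 35 on every card. An assay entered the test when no card lacked it and its mean Ct was below 35, which left 166. The test was limma 3.58.1 (R 4.3.3), with lmFit and eBayes on 4 groups in 1 model (residual degrees of freedom 4, prior 3.47) and Benjamini-Hochberg adjustment per comparison at 0.05. The number of cards limits the precision: the smallest two-sided p of an exact permutation test with 2 cards a group is 0.333. The fit was also run on simulated data, and no result of that run is used here. Values were tabulated with Python 3.11.15 and pandas 2.3.3, and plots drawn with matplotlib 3.10.9.

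The 3 assays, the marker lists and the alternatives were chosen with earlier results of these data known. Besides the 3 assays, those named were the control small RNAs, the 3 assays with the highest r to each and the 1 with the lowest, any assay sharing a seed or lying within 10 kb, and up to 4 per list by absolute mean log2 fold change. Alternatives were other centrings, other filters on faint assays, undetermined values at Ct 40, the replicate number as a block, a fit to the groups compared, and each card left out. Sequences and coordinates are from RefSeq tables of GRCm38.p6; the Ct values carry no genome build. For 1 and 4 weeks the series design text gives other animal numbers than the 2 replicates per group in the labels, which were used.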

Additional observations from a re-analysis of the deposited data

Results flagged for a closer look

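For miR-193 and miR-193b, limma's contrast between 2 times on CCl4 passed the threshold. Of all 166 assays, 47.0% passed for 4 against 1 week and 24.1% for 8 against 1 week. The values of miR-193 and miR-193b are a description of these cards, since these assays were chosen with such changes known. For miR-193 the log2 level at 4 weeks differed from that at 1 week by -2.42, and both 4-week cards lay below both 1-week cards. For miR-193b the difference from 1 week was -1.43 at 4 weeks and -2.09 at 8 weeks, and again the cards did not overlap. For 1 pair of groups with 2 cards each, that happens by chance in 33.3% of cases. The miR-193 call was lost without the first 1-week card (-1.91) or the second 4-week card (-1.76) and with undetermined values at Ct 40 (-2.42). The miR-193b call at 4 weeks was lost without the second 1-week card (-1.32), with the control small RNAs (-0.55) and without normalization (-1.77), and that at 8 weeks without the second 8-week card (-2.12) and without normalization (-1.60).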

How the results depend on the processing

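Against untreated, the direction of each of the 3 assays was the same under all alternatives run, and 135 of 153 values kept their side of the threshold. Without normalization, calls were lost for miR-193b at 1 week (2.02) and 4 weeks (0.26), for miR-365 at 1 week (-1.71) and 4 weeks (-2.31), and for miR-193b at 4 weeks against 1 week (-1.77) and 8 weeks against 1 week (-1.60), and miR-193b at 8 weeks against 4 weeks turned to 0.17. With the control small RNAs, calls were lost for miR-365 at 4 weeks (-0.82) and for miR-193b at 4 weeks against 1 week (-0.55), and miR-365 at 4 weeks against 1 week turned to 0.62. miR-193b at 4 weeks was also lost with the geometric mean (0.89), quantile normalization (0.66), undetermined values at Ct 40 (1.10) and only the 2 groups compared (1.10), and miR-193 at 4 weeks against 1 week with undetermined values at Ct 40 (-2.42). Leaving out 1 card at a time gave -3.02 to -1.76 for miR-193 at 4 weeks against 1 week, 0.90 to 1.29 for miR-193b at 4 weeks, -1.61 to -1.25 and -2.26 to -1.97 for miR-193b at 4 and 8 weeks against 1 week, and -1.33 to -1.03 for miR-365 at 1 week. Quantile normalization, which also alters differences within a card, moved miR-365 minus miR-193b to -3.39, -1.89 and -0.85 at the 3 times. The cause was not tested.

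Counts of assays called were 54, 50 and 5 against untreated at 1, 4 and 8 weeks and 78, 40 and 2 for 4 against 1, 8 against 1 and 8 against 4 weeks. Without normalization they were 5, 10, 1, 29, 8 and 0. At 8 weeks the count was 1 with the geometric mean, 12 with the control small RNAs, 3 at a mean Ct below 32, and 0 with undetermined values at Ct 40 or only the 2 groups compared. Undetermined values at Ct 40 gave 40 for 4 against 1 week, 20 for 8 against 1 and 0 for 8 against 4. Quantile normalization gave 20 for 8 against 1 and 9 for 8 against 4 weeks, where the geometric mean and the control small RNAs gave 1 each and only the 2 groups compared gave 0. Leaving out a card gave 17 to 59, 22 to 51 and 0 to 6 against untreated, and 27 to 74, 3 to 49 and 0 to 1 between times. Where limma called 0 assays, 27 to 45 (8 weeks) and 17 to 29 (8 against 4 weeks) had an unadjusted p under 0.05. The control small RNAs split the 4-week calls into 45 higher and 11 lower, against 22 and 28, and the geometric mean split the 1-week calls into 18 higher and 33 lower, against 30 and 24.

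The labels number the replicates alike in each group, but do not say what a number shares, and the r of replicate deviations ran from -0.50 (untreated and 8 weeks) to 0.43 (4 and 8 weeks). With the replicate block, the counts were 50, 49 and 4 against untreated and 75, 38 and 0 between times. An exchange of the untreated numbers, chosen after seeing the data, gave 74, 65 and 17 against untreated and 90, 64 and 11 between times.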
